A study of Mus musculus with 12 samples.

Results

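Type I interferon-stimulated genes are the genes that cells switch on when interferon alpha or beta binds its receptor. A list of 38 such genes was followed by gene symbol through RNA-seq count tables of mouse spleen cells, and 36 of them were found among the 16805 genes listed for neutrophils and among the 16954 listed for monocytes. Mx1 and Mx2, the other listed genes, were not analysed here. All 36 passed the filter on low counts in both tables.

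The 12 libraries came from wild-type mice, in 4 groups of 3. Neutrophils had been captured from the spleen with a PE-coupled antibody to Ly6G, which mouse neutrophils carry on their surface, either from tumor-bearing mice without therapy (control) or 12 h after cryo-thermal therapy (CTT), which freezes and then heats a tumor. Monocytes had been captured with a PE-coupled antibody against CCR2, the chemokine receptor of inflammatory monocytes, 5 days after CTT, either from mice given CTT alone or from mice also given anti-Ly6G, which serves to remove neutrophils. Both monocyte groups had thus received CTT, and the monocyte comparison bears on the antibody added to it. The sources used here do not give the age of the mice, the kind of tumor or the number of mice behind a library. The labels call the libraries biological replicates, and the p-values below set the difference between groups against the spread between these libraries.

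As background, the interferon receptor activates the kinases JAK1 and TYK2, which phosphorylate STAT2. STAT2 acts with IRF9 in a complex that binds interferon-stimulated response elements, short GAAA-rich sequences in the promoters of the target genes. The products of those genes sense foreign RNA and DNA, bind or destroy viral nucleic acid, attach the ubiquitin-like protein ISG15 to other proteins, or damp the response again. Monocytes and macrophages of the spleen are known as strong responders to interferon.

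Values are given in CPM, read counts brought to a common library size and scaled between libraries by the TMM method. The neutrophil libraries held 30942849 to 34935547 counts and the monocyte libraries 31865982 to 35956571. Ly6g stood at 9.52 to 14.7 CPM in control and 12.7 to 25.5 CPM in CTT neutrophil libraries, and at 11.7 to 16.1 CPM in the monocyte libraries after CTT alone and 48.5 to 62.7 CPM with anti-Ly6G, so this defining marker did not set the neutrophil libraries above the others. Ccr2 stood at 76.8 to 194 CPM in neutrophil and 190 to 587 CPM in monocyte libraries. The cells are called neutrophils and monocytes as labelled. Sums of 10 B cell markers reached 3140 to 7903 CPM in control and 6460 to 7023 CPM in CTT neutrophil libraries, beside 4299 to 6303 CPM and 8011 to 13259 CPM for 15 neutrophil markers. Control replicate 1 of the neutrophils stood apart, with a sum of 13134 CPM over 10 erythroid markers against 740 to 2260 CPM in the other controls and 384 to 777 CPM after CTT.

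All 36 genes are protein coding, and positions below are on GRCm38.p6. Ifit2, Ifit3, Ifit3b and Ifit1 lie in a row on chromosome 19, from chr19:34550550-34576534 for Ifit2 to chr19:34640889-34650009 for Ifit1. Rsad2 and Cmpk2 are neighbours at chr12:26442743-26456452 and chr12:26469117-26479837. Mov10 lies at chr3:104794828-104818619, Plscr1 at chr9:92250194-92272561, Zbp1 at chr2:173206612-173218959, Usp18 at chr6:121245906-121270917 and Isg15 at chr4:156199424-156200818.

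Promoter sequences were read to show what the letters of a response element look like in some of the 36 genes. RefSeq promoter windows of GRCm38.p6, from 250 bases before to 50 bases after a gene's start, had an entry for 28 of the 36 genes (77.8%). Windows were searched on both strands for 2 copies of GAAA with 2 bases of any kind between them, and matches could overlap. In the sequences below, written 5′ to 3′ on the gene's strand, capitals mark the matched letters. Ifit1, Isg15 and Trim30a are shown because they held the letters and rose in monocytes. Rsad2 and Ifit3 are shown because they held them and, in monocytes, anti-Ly6G replicate 2 exceeded 1.5 times the mean of replicates 1 and 3.
Ifit1: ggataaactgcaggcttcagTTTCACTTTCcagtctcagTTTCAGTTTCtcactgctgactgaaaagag
Isg15: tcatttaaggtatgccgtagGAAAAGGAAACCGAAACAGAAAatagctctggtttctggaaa
Trim30a: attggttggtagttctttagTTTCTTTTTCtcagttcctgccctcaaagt
Rsad2: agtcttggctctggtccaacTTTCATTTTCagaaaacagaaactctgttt
Ifit3: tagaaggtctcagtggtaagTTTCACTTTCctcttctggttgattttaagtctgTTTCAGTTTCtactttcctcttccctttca

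The stretch of Ifit1 lies at chr19:34640765-34640833 on the plus strand, with matches that begin 104 and 85 bases before the gene's start. That of Isg15, at chr4:156200855-156200916 on the minus strand, holds 3 overlapping matches between 78 and 66 bases before the start. The Trim30a stretch, at chr7:104465200-104465249 on the minus strand, has its match 36 bases before the start, and the Rsad2 stretch, at chr12:26456543-26456592 on the minus strand, 120 bases before it. For Ifit3, at chr19:34583353-34583436 on the plus strand, the matches stand 156 and 122 bases before the start that the promoter table uses. That start lies inside the gene as RefSeq places it (chr19:34583119-34588982), so the stretch is within the gene and not before its first base. The same 84 bases occur in its near copy Ifit3b, where they are likewise inside the gene. Of the 28 genes with an entry, 12 held the letters (42.9%), as did 1079 of all 27025 genes with an entry (3.99%), and 3.44% of all windows of this length. Because fewer than 80% of the 36 genes had an entry, a check of this property over the whole list is void. The 7 further genes with the letters were Bst2, Cxcl10, Ddx58, Eif2ak2, Ifih1, Ifit3b and Stat2. In monocytes 3 of the 12 genes with the letters rose, beside 10 of the 16 without them and 10.2% of all tested genes. Of the 8 genes with no entry 6 rose, and these differences were not tested. Mov10, Plscr1 and Cmpk2 were among the genes without the letters, and Zbp1 and Usp18 among those with no entry.

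In monocytes taken 5 days after CTT, interferon-stimulated genes were higher in mice that had also received anti-Ly6G. In all, 19 of the 36 genes rose and 0 fell (edgeR's quasi-likelihood F test, p-values adjusted after Benjamini and Hochberg over all tested genes, threshold 0.05), where 10.2% of the 13294 tested genes rose and 5.12% fell. The scramblase gene Plscr1 rose by 1.03 (SE 0.11) and the RNA helicase gene Mov10 by 0.94 (SE 0.07) on the log2 scale. Ifit1 stood at 1.25 (SE 0.32), or at 0.68 without anti-Ly6G replicate 2, below Plscr1 (1.07), Mov10 (0.92) and Zbp1 (0.73). The median log2 fold change was 0.37, against −0.0044 for all tested genes. In 25 of the 36 the 3 anti-Ly6G libraries lay above all 3 libraries with CTT alone, which was so for 20.6% of all tested genes, and 0 lay below, against 15.4%. These are bulk samples, in which more cells of a type and more RNA per cell cannot be told apart.

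**Figure D1:**
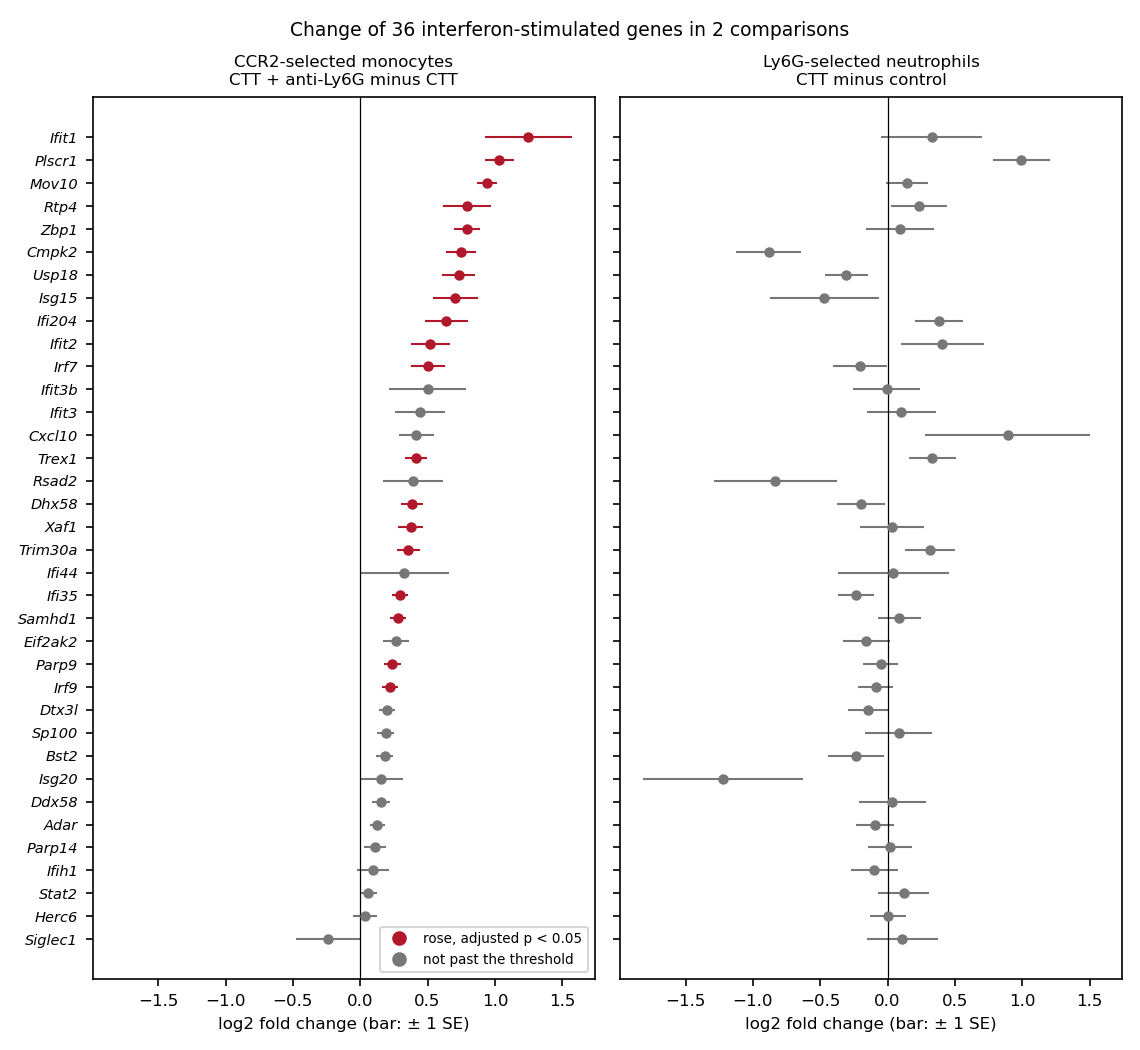
Log2 fold change of each of the 36 genes (points, bars ± 1 SE) in monocytes (left, CTT with anti-Ly6G minus CTT alone) and in neutrophils (right, CTT minus control), ordered by the monocyte value. Red points passed an edgeR adjusted p of 0.05: 19 genes on the left, with Ifit1, Plscr1 and Mov10 at the top, and 0 on the right, where most points lie near 0.

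Of 4 genes that relay the interferon signal or feed back on it, 3 rose. Usp18 encodes the protease that strips ISG15 from proteins and blocks the interferon receptor. It read 18.7, 18.3 and 18.5 CPM with CTT alone and 27.7, 36.9 and 27.5 CPM with anti-Ly6G. All 3 antibody libraries were higher than any other, and Usp18 rose by 0.73 on the log2 scale (SE 0.12, edgeR adjusted p = 0.00535). Irf7, the transcription factor that amplifies interferon production, read 155, 115 and 128 CPM against 166, 219 and 178 CPM and rose by 0.51 (SE 0.13, edgeR adjusted p = 0.0311). Its groups did not overlap, but the highest library with CTT alone came close to the lowest with the antibody. Irf9, the DNA-binding part of the STAT complex, rose by 0.22 (SE 0.06, edgeR adjusted p = 0.0337). Stat2 did not pass, at 163 ± 9.80 CPM (SD, n = 3) and 170 ± 1.14 CPM (0.06, SE 0.06, edgeR adjusted p = 0.551).

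Among 6 sensors of nucleic acid, 3 rose. Zbp1 encodes a sensor of left-handed nucleic acid that can start cell death. Its libraries read 41.0, 51.4 and 45.0 CPM with CTT alone and 74.0, 86.5 and 77.5 CPM with the antibody, with a wide gap between the groups, and it rose by 0.79 (SE 0.10, edgeR adjusted p = 0.00117). Dhx58, which encodes LGP2, a regulator of the RNA sensors, read 71.1, 58.6 and 60.1 CPM against 81.7, 86.6 and 79.2 CPM. It rose by 0.38 (SE 0.08, edgeR adjusted p = 0.0174). Ifi204, a DNA sensor of the p200 family, read 97.0, 61.6 and 67.8 CPM against 112, 133 and 108 CPM and rose by 0.64 (SE 0.16, edgeR adjusted p = 0.0291). Here CTT replicate 1 stood well above the other libraries of its group, and 20.02% of the 50-base transcript stretches of Ifi204 occur in related genes. The RNA sensor genes Ddx58, for RIG-I (0.15, SE 0.07), and Ifih1, for MDA5 (0.10, SE 0.12), and Eif2ak2, for the kinase PKR (0.27, SE 0.10), did not pass, with edgeR adjusted p-values of 0.171, 0.621 and 0.0945.

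In the group of ISG15, ubiquitin and ADP-ribose genes 2 of 5 rose. Isg15, the ubiquitin-like modifier itself, read 26.5, 22.7 and 22.8 CPM with CTT alone and 32.2, 50.9 and 34.3 CPM with anti-Ly6G. Replicate 2 of the antibody group was far above its other libraries, the groups did not overlap, and Isg15 rose by 0.71 (SE 0.17, edgeR adjusted p = 0.0238). Parp9, an ADP-ribosylation factor that works with the ubiquitin ligase DTX3L, rose by 0.24 (SE 0.06, edgeR adjusted p = 0.037). Its partner Dtx3l had a similar log2 fold change of 0.20 (SE 0.06) with an edgeR adjusted p of 0.0556. Parp9 and Dtx3l overlap on chromosome 16, and without a stated strand setting their shared reads cannot be assigned. Parp14, an ADP-ribosyltransferase, stood at 219 ± 11.3 and 237 ± 23.8 CPM (0.11, SE 0.08), and Herc6, the ligase that attaches ISG15 in mice, at 48.6 ± 5.08 and 49.8 ± 2.95 CPM (0.03, SE 0.09), with edgeR adjusted p-values of 0.392 and 0.824.

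Antiviral RNA-binding and restriction genes formed the largest group, and 6 of the 10 measured rose. Mov10, an RNA helicase that restricts retroviruses and retrotransposons, read 41.9, 42.0 and 41.0 CPM with CTT alone and 84.8, 82.3 and 72.7 CPM with the antibody. It had the smallest p of the 36 genes, with little spread in either group (edgeR adjusted p = 0.000166). Plscr1, which encodes a membrane scramblase with antiviral activity, read 22.9, 19.8 and 18.8 CPM against 47.1, 39.9 and 38.8 CPM, again without overlap (edgeR adjusted p = 0.000622). Of its 50-base transcript stretches 12.3% also occur in Gm5530. Cmpk2, a mitochondrial nucleotide kinase encoded beside Rsad2, read 41.9, 34.3 and 36.4 CPM against 60.7, 72.8 and 55.8 CPM. It rose by 0.75 (SE 0.11, edgeR adjusted p = 0.00323), and its groups did not overlap. Trim30a, a ligase that restrains signalling of toll-like receptors, read 209, 223 and 206 CPM against 248, 308 and 263 CPM and rose by 0.36 (SE 0.08, edgeR adjusted p = 0.0246).

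Ifit1, which binds viral RNA that lacks the host's cap methylation, had the largest SE of the log2 fold change among the 19 genes that rose. It read 9.90, 9.80 and 9.25 CPM with CTT alone and 14.8, 37.7 and 16.1 CPM with anti-Ly6G (edgeR adjusted p = 0.0342). All antibody libraries were higher than the others, and replicate 2 was 2.44 times the mean of replicates 1 and 3. In limma-voom Ifit1 did not pass (adjusted p = 0.0754). Its relative Ifit2 rose by 0.52 (SE 0.14, edgeR adjusted p = 0.0405). Ifit3 (0.44, SE 0.18, edgeR adjusted p = 0.141) and Ifit3b (0.50, SE 0.29, edgeR adjusted p = 0.275) did not pass and are uncertain one by one, since 51.2% and 44.5% of their 50-base transcript stretches occur in the other. Rsad2, which encodes viperin, an enzyme that makes a chain-terminating nucleotide, read 62.0, 48.1 and 50.4 CPM against 55.5, 101 and 54.5 CPM. Only replicate 2 lay above the range of CTT alone (0.39, SE 0.22, edgeR adjusted p = 0.27). Bst2, the tether that holds virions on the cell surface, read 85.2, 78.8 and 74.9 CPM against 88.8, 93.1 and 89.0 CPM, without overlap but with an edgeR adjusted p of 0.0953 (0.18, SE 0.07).

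Among nucleases and nucleotide enzymes, 2 of 4 rose. Samhd1, the enzyme that destroys the building blocks of DNA, was the most abundant member in CPM. It read 752, 765 and 725 CPM with CTT alone and 875, 950 and 899 CPM with anti-Ly6G, a rise of 0.28 (SE 0.06, edgeR adjusted p = 0.0141) with no overlap. Trex1, the nuclease that clears DNA from the cytosol, read 59.2, 49.8 and 49.7 CPM against 72.9, 69.7 and 68.9 CPM and rose by 0.41 (SE 0.08, edgeR adjusted p = 0.0106). Its value is uncertain, since 95.8% of its 50-base transcript stretches also occur in transcripts of the neighbouring Atrip. Adar, which edits adenosine in double-stranded RNA (0.13, SE 0.06), and Isg20, an RNA exonuclease (0.16, SE 0.16), did not pass, with edgeR adjusted p-values of 0.164 and 0.557.

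Of 5 genes with nuclear, cell death or less defined roles, 3 rose. Rtp4, a chaperone of receptors that also restrains interferon responses, read 42.7, 34.1 and 37.2 CPM with CTT alone and 51.6, 87.5 and 58.4 CPM with the antibody. Replicate 2 again stood above the rest, and Rtp4 rose by 0.79 (SE 0.18, edgeR adjusted p = 0.0213). Ifi35, a partner of the protein NMI, read 51.5, 47.3 and 51.0 CPM against 60.5, 62.0 and 61.3 CPM and rose by 0.29 (SE 0.06, edgeR adjusted p = 0.0143). Xaf1, a cell death gene, read 26.0, 26.1 and 24.7 CPM against 29.7, 37.0 and 32.8 CPM and rose by 0.37 (SE 0.09, edgeR adjusted p = 0.0295). Sp100, a component of nuclear bodies, stood at 321 ± 13.4 and 365 ± 13.6 CPM without overlap, but did not pass (0.19, SE 0.06, edgeR adjusted p = 0.0681). Ifi44, the least abundant of the 36, stood at 6.01 ± 2.19 and 7.53 ± 3.11 CPM (0.33, SE 0.33, edgeR adjusted p = 0.549).

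Neither of the secreted and surface products passed. Cxcl10, the chemokine that draws activated T cells, read 14.3, 12.3 and 12.8 CPM with CTT alone and 18.3, 19.3 and 14.8 CPM with anti-Ly6G. The groups were separate by a small margin (0.42, SE 0.13, edgeR adjusted p = 0.0583). Siglec1, the sialic acid receptor CD169 of spleen and lymph node macrophages, was the only one of the 36 with a negative value. It read 217, 117 and 118 CPM against 131, 149 and 101 CPM (−0.24, SE 0.24, edgeR adjusted p = 0.539), with CTT replicate 1 above all others. The summed red pulp macrophage markers were also highest in that library, at 15902 CPM against 7643 to 11037 CPM in the other 5.

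**Figure D2:**
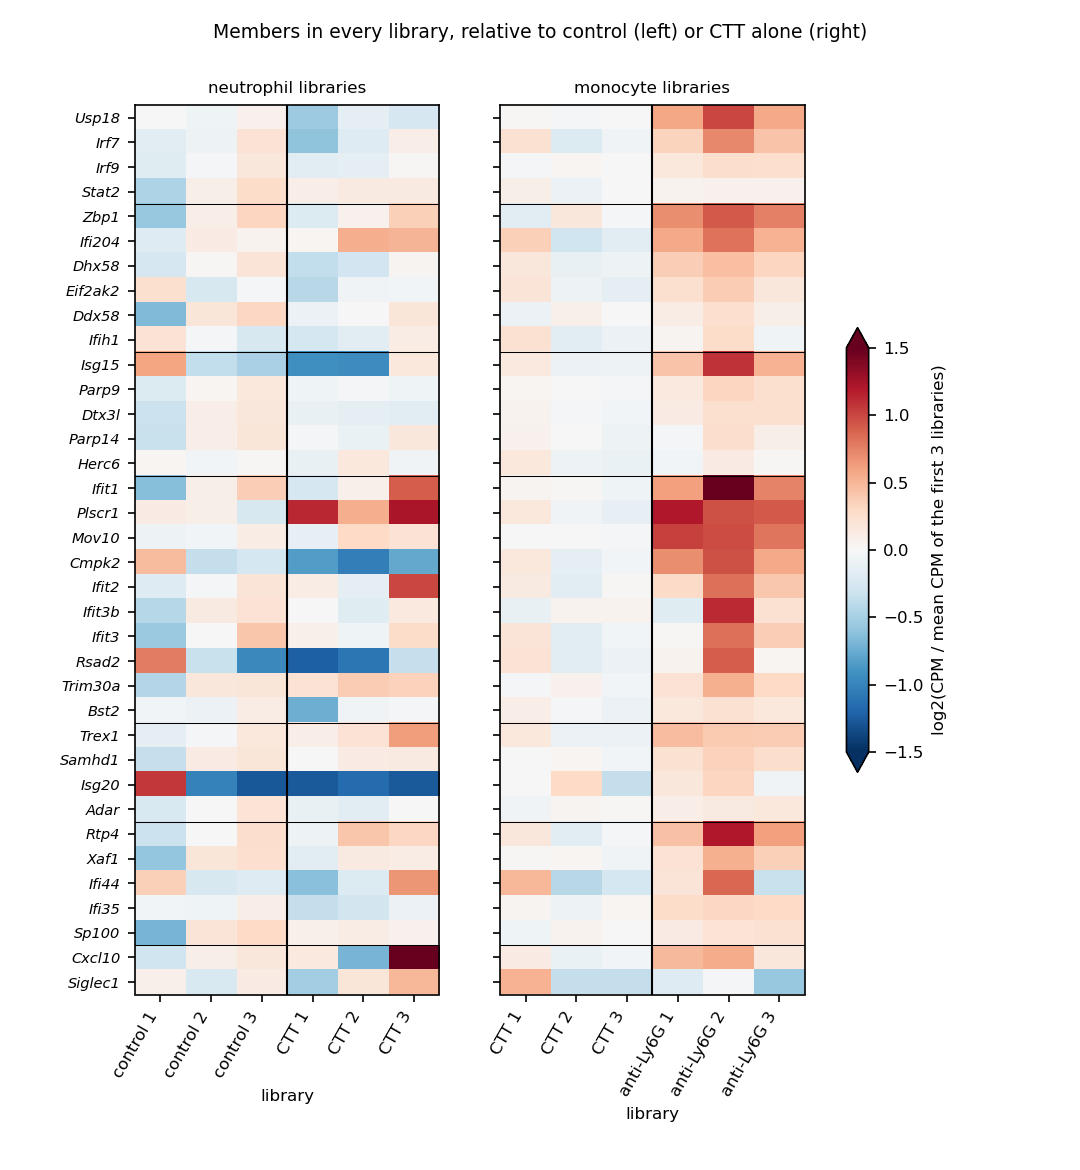
Each row is a gene and each column a library; color gives log2 of its CPM over the mean of control (left, neutrophils) or of CTT alone (right, monocytes), cut at 1.5 in both directions, and lines divide the role groups in the order of the text. In the right panel the anti-Ly6G columns are mostly red and replicate 2 is the darkest, while the left panel has no such division between control and CTT.

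The genes did not move evenly over the antibody libraries. Replicate 2 of anti-Ly6G was the highest of the 6 monocyte libraries for 28 of the 36 genes, and for 14.5% of all tested genes. It exceeded the mean of replicates 1 and 3 by more than 1.5 times in 7 genes, namely Ifit1, Ifit3b, Ifi44, Rsad2, Rtp4, Ifit3 and Isg15, and in 4.63% of all tested genes. Summed over the 36 genes, the levels were 3739, 3493 and 3421 CPM with CTT alone and 4106, 4706 and 4184 CPM with the antibody, so that all antibody libraries were above the others. The 5 genes Mov10, Plscr1, Zbp1, Cmpk2 and Usp18, by contrast, had replicate 2 between 0.93 and 1.34 times the mean of the other antibody libraries. For Zbp1, Cmpk2 and Usp18 it was still the highest of the 6 libraries. Replicate 2 was the highest antibody library in the summed markers of red pulp macrophages (8346 CPM against 8297 and 7643 CPM), marginal zone macrophages (333 CPM against 287 and 299 CPM) and erythroid cells (1341 CPM against 1195 and 819 CPM), and for T and NK cells at 104.6 CPM against 89.6 and 104.4 CPM. It lay between the other antibody libraries in neutrophil markers (17561 CPM, against 19243 and 14109 CPM) and in plasmacytoid dendritic cell markers (319 CPM, against 318 and 326 CPM). The same held for classical monocyte markers (9127 CPM, against 9968 and 8706 CPM) and B cell markers (3663 CPM, against 2956 and 4094 CPM). For conventional dendritic cell markers replicate 2 was the lowest antibody library (575 CPM, against 593 and 665 CPM). The part of these markers in the levels of replicate 2 was not tested.

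The size of the count depended on single libraries. Without anti-Ly6G replicate 2, 9 genes rose (background 6.44%), with a median log2 fold change of 0.23, and Ifit1 was among them at 0.68 (SE 0.12, edgeR adjusted p = 0.0165). Isg15 then stood at 0.47 (SE 0.10, edgeR adjusted p = 0.0337), and Ifit2 was no longer called at 0.34 (SE 0.11, edgeR adjusted p = 0.0981). Leaving out CTT replicate 3 left 5 that rose (5.22%), without CTT replicate 2 there were 8 (6.46%), and without anti-Ly6G replicate 3 there were 12 (6.87%). Mov10, Plscr1, Zbp1, Cmpk2 and Usp18 were called in all 17 alternatives run, including each library left out. DESeq2 called 22 of the 36 (11.8% of all tested genes) and limma-voom 18 (10.3%), and neither called a gene that fell.

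**Figure D3:**
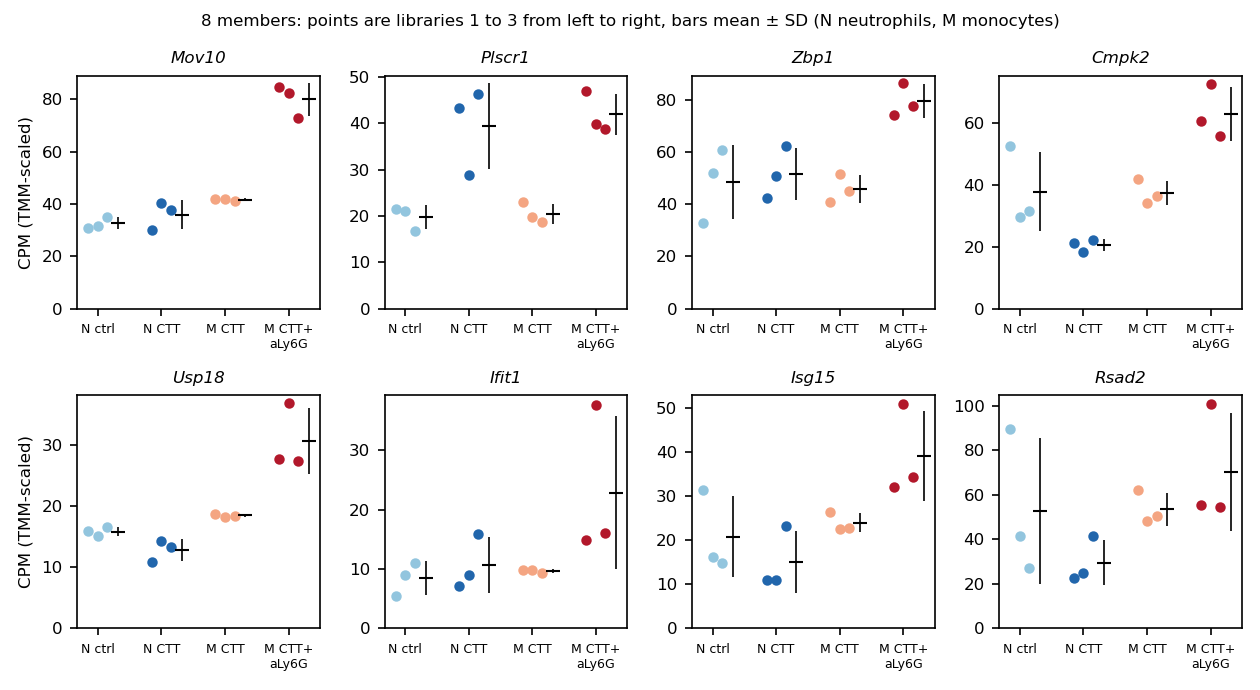
CPM of 8 genes in every library (points, replicates 1 to 3 from left to right) with mean ± SD of 3 beside them, for neutrophils (N, blue) and monocytes (M, red tones). Mov10, Plscr1, Zbp1, Cmpk2 and Usp18 separate the 2 monocyte groups, with anti-Ly6G replicate 2 the highest library for Zbp1, Cmpk2 and Usp18. Ifit1, Isg15 and Rsad2 show that replicate further above its fellow libraries, at 37.7, 50.9 and 101 CPM.

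Markers of several cell types moved together with this result. For comparison, 10.2% of all tested genes rose with anti-Ly6G and 5.12% fell. Ly6g itself went from 11.7 to 16.1 CPM up to 48.5 to 62.7 CPM. Of 15 neutrophil markers 13 rose with anti-Ly6G, their sum going from 5015 to 7105 CPM up to 14109 to 19243 CPM, and of 10 classical monocyte markers 8 rose and 1 fell (5226 to 8040 CPM, then 8706 to 9968 CPM). Of 10 red pulp macrophage markers 7 fell (9585 to 15902 CPM, then 7643 to 8346 CPM), and of 6 marginal zone macrophage markers 3 fell (428 to 568 CPM, then 287 to 333 CPM). None of 10 markers of plasmacytoid dendritic cells, the main makers of type I interferon, rose or fell in edgeR with all libraries. Of these 10, 2 had an unadjusted edgeR p below 0.05, and 1 rose in DESeq2 and 0 in limma-voom. In edgeR without CTT replicate 1, 1 rose and 2 fell. Their sums were lower with anti-Ly6G and did not overlap (338 to 360 CPM, then 318 to 326 CPM). Of T and NK cell markers 4 rose and 1 fell of 10 (median 0.60). All 10 B cell markers had negative values (median −0.48, 10 with an unadjusted edgeR p below 0.05), of which 2 fell, and all 10 erythroid markers had negative values (median −0.56), of which 2 fell. Without any 1 of the antibody libraries 1 red pulp marker fell, and without CTT replicates 1, 2 and 3 in turn there were 8, 9 and 4, while 11 to 14 neutrophil markers rose whichever library was left out. No marker of these lists was at 0 in all libraries. The part of the cell mix in the change of the 36 genes was not tested.

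Further lists of the pathway were written with earlier results of the same data known, and differences between the lists were not tested. Beside them, 10.2% of all tested genes rose and 5.12% fell in edgeR with all libraries. Of 8 tested OAS genes, whose products make a messenger that activates RNase L, together with RNase L itself, 6 rose and 0 fell, with a median of 0.96, and 4 to 6 rose when 1 library was left out. Oas3 led with a rise of 1.38 (SE 0.13), from 62.0 ± 0.533 to 162 ± 33.7 CPM, and Oas1a (0.91, SE 0.10), Oas2 (1.04, SE 0.12) and Oas1g (1.35, SE 0.18) followed, with edgeR adjusted p-values from 0.000381 to 0.00198. Of 52 other interferon-induced genes 13 rose and 2 fell, with a median of 0.096, and with 1 library left out 9 to 16 rose and 0 to 4 fell. The 4 with the smallest p were the membrane protein gene Ms4a6b (0.93, SE 0.07), the Schlafen genes Slfn4 (1.74, SE 0.18) and Slfn1 (1.25, SE 0.17), and Ms4a4c (0.62, SE 0.08). The 2 that fell, named because there were so few, were Ifi27 (−0.40, SE 0.09, edgeR adjusted p = 0.0201) and the RNA sensor gene Tlr3 (−0.35, SE 0.10, edgeR adjusted p = 0.045). Their share is under the 5.12% of all tested genes, and nothing is read from it.

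Of 29 genes of interferon-gamma GTPases and MHC class I presentation 3 rose and 0 fell in edgeR (7 had an unadjusted p below 0.05; DESeq2 had 3 and 1, limma-voom 3 and 0), with a median of 0.016. That share is near the 10.2% of all tested genes that rose, and nothing is read from it. The 3 were the GTPase genes Ifi47 (0.33, SE 0.08) and Irgm1 (0.35, SE 0.09) and the proteasome activator gene Psme2 (0.23, SE 0.06), and 0 rose when CTT replicate 2 or 3 or anti-Ly6G replicate 2 or 3 was left out. Without CTT replicate 1 there were 4 that rose and 5 that fell, and without anti-Ly6G replicate 1 there were 2 and 0. Of 18 genes that sense microbes and induce interferon 5 rose and 2 fell, beside 10.2% and 5.12% of all tested genes, with a median of −0.041. Myd88, the adaptor of toll-like receptors, rose by 0.63 (SE 0.05), Ikbke, a kinase that activates interferon regulatory factors, by 0.60 (SE 0.08), Sting1, the adaptor of cytosolic DNA sensing, by 0.38 (SE 0.08), Trim25, a ligase that activates RIG-I, by 0.26 (SE 0.06) and Cgas, a DNA sensor, by 0.63 (SE 0.16). Aim2, an inflammasome DNA sensor, fell by 0.25 (SE 0.06, edgeR adjusted p = 0.0323), as did Tlr3, which is in both lists. Leaving out CTT replicate 3 or any antibody library left 2 or 3 sensing genes that rose and 0 that fell. Of 14 receptor and JAK-STAT genes only Stat3 rose, from 242 ± 3.01 to 315 ± 2.62 CPM (0.38, SE 0.05, edgeR adjusted p = 0.00207). As 10.2% of all tested genes rose, nothing is read from that count. The interferons themselves were at the limit of detection: 4 of 18 ligand genes were listed, with 2 to 11 counts in all per monocyte library, and 0 were tested.

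**Figure D4:**
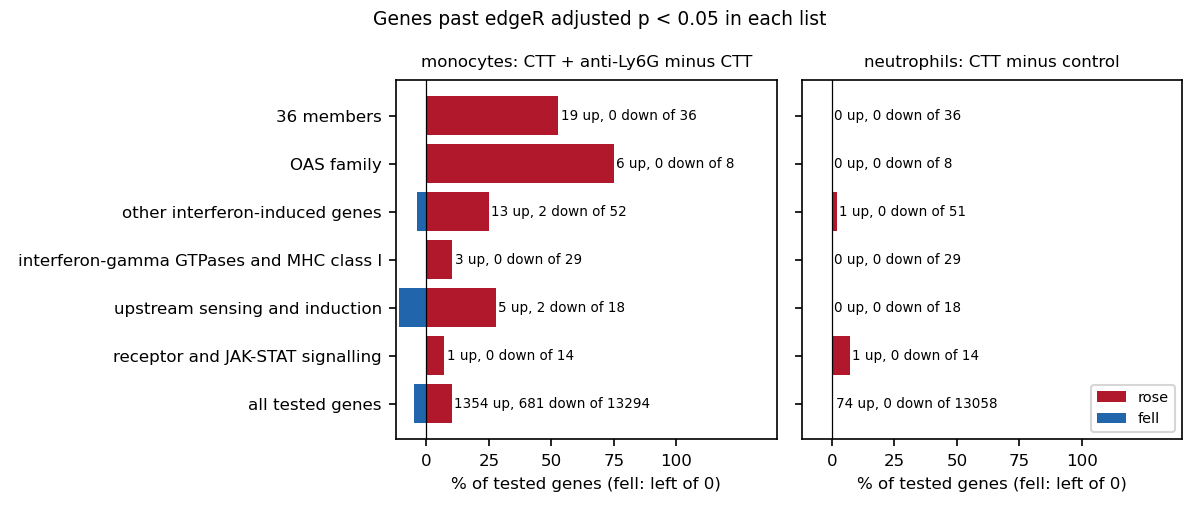
Share of the tested genes of each list that passed an edgeR adjusted p of 0.05, rising (red, right of 0) or falling (blue, left of 0), in monocytes (left) and neutrophils (right), with the counts beside each bar. In monocytes the 36 genes (19 of 36) and the OAS family (6 of 8) have the longest red bars beside 10.2% of all tested genes, and in neutrophils hardly any gene of the lists is called.

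In neutrophils 12 h after CTT, none of the 36 genes passed the test. In edgeR 0 rose and 0 fell, where 0.567% of the 13058 tested genes rose and 0% fell, so the background leaves little room for calls in a list of this size. With an unadjusted edgeR p below 0.05 there were 2, Plscr1 and Cmpk2, and they had opposite signs. The median log2 fold change was 0.027, against −0.017 for all tested genes, and its sign differed between settings. All 3 CTT libraries lay above all controls in 2 genes, Plscr1 and Trim30a (13.6% of all tested genes), and below them in 3, Cmpk2, Usp18 and Ifi35 (11%). These shares are near or under the background. The spread between libraries was wider here than in monocytes, with a common biological coefficient of variation of 0.2753 against 0.1145.

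Plscr1 had the smallest p of the 36. It read 21.6, 21.0 and 16.9 CPM in control and 43.3, 28.9 and 46.3 CPM after CTT, with no overlap (0.99, SE 0.21, edgeR adjusted p = 0.127). Without control replicate 1 it was the 1 gene that rose (1.06, SE 0.21, edgeR adjusted p = 0.0492, background 1.93%). DESeq2, with all libraries, called it as well (adjusted p = 0.00294), where 3.49% of all genes rose, while limma-voom called 0 of the 36 (0.528%). Trim30a, with 115, 177 and 179 CPM in control and 182, 204 and 200 CPM after CTT, missed the threshold (0.32, SE 0.18, edgeR adjusted p = 0.429).

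Cmpk2 lay on the other side. Its libraries read 52.6, 29.6 and 31.6 CPM in control and 21.1, 18.4 and 22.2 CPM after CTT (−0.88, SE 0.24, edgeR adjusted p = 0.226). Without control replicate 1 its value was −0.57 (SE 0.12, edgeR adjusted p = 0.0688). DESeq2 called it as lower (adjusted p = 0.0294), where 0.819% of all genes fell. The neighbouring Rsad2 read 89.4, 41.6 and 26.9 CPM against 22.5, 24.8 and 41.4 CPM, with overlapping groups (−0.83, SE 0.45, edgeR adjusted p = 0.41). Isg20 read 127, 30.2 and 25.2 CPM against 25.5, 27.4 and 25.3 CPM, so that its value of −1.22 (SE 0.59, edgeR adjusted p = 0.382) came with 1 control library, replicate 1, far above the rest. Without it the value of Isg20 was −0.086. Control replicate 1 was also the highest for Cmpk2 and Rsad2, and it is the library with the high erythroid sum given above. Usp18 read 15.9, 15.1 and 16.5 CPM against 10.9, 14.3 and 13.3 CPM (−0.31, SE 0.16, edgeR adjusted p = 0.403), lower in all CTT libraries by a small margin.

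Other genes showed 1 CTT library apart. Cxcl10 read 21.7, 28.3 and 29.96 CPM in control and 29.5, 16.5 and 102 CPM after CTT, and replicate 3 alone exceeded the controls (0.89, SE 0.61, edgeR adjusted p = 0.487). Without that replicate its value was −0.21. The same library held 241 counts of Ifnb1, the interferon beta gene, against 52, 53 and 86 in control and 44 and 5 in CTT replicates 1 and 2 (0.67, SE 1.06, edgeR adjusted p = 0.767). Isg15 read 31.5, 16.1 and 14.9 CPM against 11.0, 10.9 and 23.3 CPM (−0.47, SE 0.41, edgeR adjusted p = 0.58), with high libraries in both groups. For Ifit2 too, CTT replicate 3 was the highest, at 36.6 CPM against 15.9 to 21.0 CPM in the other libraries.

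None of the genes described next passed the test either. Ifi204 read 36.1, 44.8 and 42.5 CPM in control and 42.1, 60.2 and 58.4 CPM after CTT (0.38, SE 0.18, edgeR adjusted p = 0.372). Trex1 read 44.6, 48.3 and 54.7 CPM against 52.8, 57.0 and 75.8 CPM (0.33, SE 0.17, edgeR adjusted p = 0.401), and Ifi35 read 44.7, 44.2 and 49.3 CPM against 35.9, 38.05 and 43.3 CPM (−0.24, SE 0.13, edgeR adjusted p = 0.418), the latter without overlap. For the abundant Samhd1 the levels were 715 ± 134 and 760 ± 41.9 CPM (0.09, SE 0.16), and for Sp100 they were 414 ± 138 and 438 ± 8.78 CPM (0.08, SE 0.25). Both were lowest in control replicate 1, at 561 and 256 CPM, and without it both values turned negative. That library was the lowest of the 6 for 19 of the 36 genes and for 35.8% of all tested genes. Mov10, the gene with the smallest p in monocytes, stood at 32.6 ± 2.28 and 35.97 ± 5.39 CPM (0.14, SE 0.16, edgeR adjusted p = 0.666).

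Cell type markers differed between the neutrophil groups as well. All 15 neutrophil markers had positive values (median 0.93) and 12 an unadjusted edgeR p below 0.05, of which 2 rose in edgeR, 9 in DESeq2 and 2 in limma-voom, and their sums did not overlap between control and CTT. Of 10 classical monocyte markers 9 had positive values (median 0.36) and 1 rose in edgeR. No marker of the other cell type lists passed in edgeR. All 10 erythroid markers had negative values (median −3.24) and an unadjusted edgeR p below 0.05, and their sum was highest in control replicate 1. Of 10 plasmacytoid dendritic cell markers 7 had negative values (median −0.41). Sums of 9 conventional dendritic cell markers were 661 to 886 CPM in control and 981 to 1381 CPM after CTT, though 5 of the 9 had negative values. The part of these markers in the values of Plscr1, Cmpk2 and the other genes was not tested.

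Few other genes of the pathway were called in neutrophils, where 0.567% of all tested genes rose and 0% fell in edgeR. Socs3, an inhibitor of cytokine signalling, rose from 129 ± 14.5 to 262 ± 26.7 CPM (1.02, SE 0.14, edgeR adjusted p = 0.0361) as 1 of 14 receptor and JAK-STAT genes. Ifi207, a p200 family gene, rose from 54.5 ± 2.98 to 100.03 ± 12.4 CPM (0.88, SE 0.13, edgeR adjusted p = 0.0467) as 1 of 51 other interferon-induced genes. Both calls were lost when any library but control replicate 1 was left out, where 0 of all tested genes rose. No OAS gene passed in edgeR (0 of 8, 0 with an unadjusted p below 0.05, 0 in DESeq2 and limma-voom), nor any of the 29 interferon-gamma and MHC class I genes (0 of 29, 2 with an unadjusted p below 0.05, 0 in DESeq2 and limma-voom). Among the 18 sensing and induction genes edgeR called 0 (2 with an unadjusted p below 0.05), DESeq2 2 and limma-voom 0.

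The 2 comparisons share no libraries, and their values for the 36 genes can be set side by side, though the cells, the times and the treatments all differ. Plscr1 and Trim30a were higher without overlap in both, though neither passed in neutrophils in edgeR with all libraries. Of all tested genes 20.6% were higher without overlap in monocytes and 13.6% in neutrophils. The share of all genes for both at once was not counted, and nothing is read from these genes. In 19 genes the log2 fold change was positive in both, as it was in 22.0% of the 12793 genes tested in both. This count was nearly fixed, since 35 of the 36 values were positive in monocytes and 20 in neutrophils. Nothing is read from it. Cmpk2, Usp18 and Ifi35 stood on opposite sides without overlap, above in monocytes with anti-Ly6G and below in neutrophils after CTT. In neutrophils none of them passed in edgeR, and 11% of all tested genes lay below without overlap. The difference between the 2 comparisons was not tested.

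Levels between genes and between the cell selections were read from FPKM, in which counts are scaled for gene length and sequencing depth and which were normalized in separate tables and not tested across them. Samhd1 was the most abundant gene per length in all groups, at a mean of 155 FPKM in control and 158 FPKM in CTT neutrophils, 160 FPKM in monocytes after CTT alone and 191 FPKM with anti-Ly6G. In monocytes Bst2 (99.5 and 111 FPKM) and Irf7 (71.9 and 100 FPKM) followed, and in neutrophils Sp100 (86.3 and 87.6 FPKM). Ifi44 was the lowest in every group, from 0.647 to 2.60 FPKM. In 26 of the 36 genes all 3 CTT monocyte libraries lay above all 3 CTT neutrophil libraries, in 3 below (Sp100, Cxcl10 and Plscr1) and in 7 they overlapped. Over the 12793 genes tested in both, 39.6% lay above and 17.3% below.

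Siglec1 showed the widest gap between the selections among the 36, with 23.2 FPKM in CTT monocytes, 4.36 times its mean in CTT neutrophils. Ifi44 followed at 3.27 times and Dhx58 and Ifit3b at 2.33 times. Cxcl10 was at the other end, with 12.0 FPKM in CTT monocytes against 43.4 FPKM in CTT neutrophils, a mean that rests on replicate 3. Plscr1 stood at 9.36 FPKM in monocytes after CTT alone, against 17.5 FPKM in CTT neutrophils, and reached 18.8 FPKM in monocytes with anti-Ly6G. Mov10 was at 8.49 and 8.98 FPKM in the neutrophil groups and 10.7 FPKM in monocytes after CTT alone, and at 20.2 FPKM with the antibody.

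**Figure D5:**
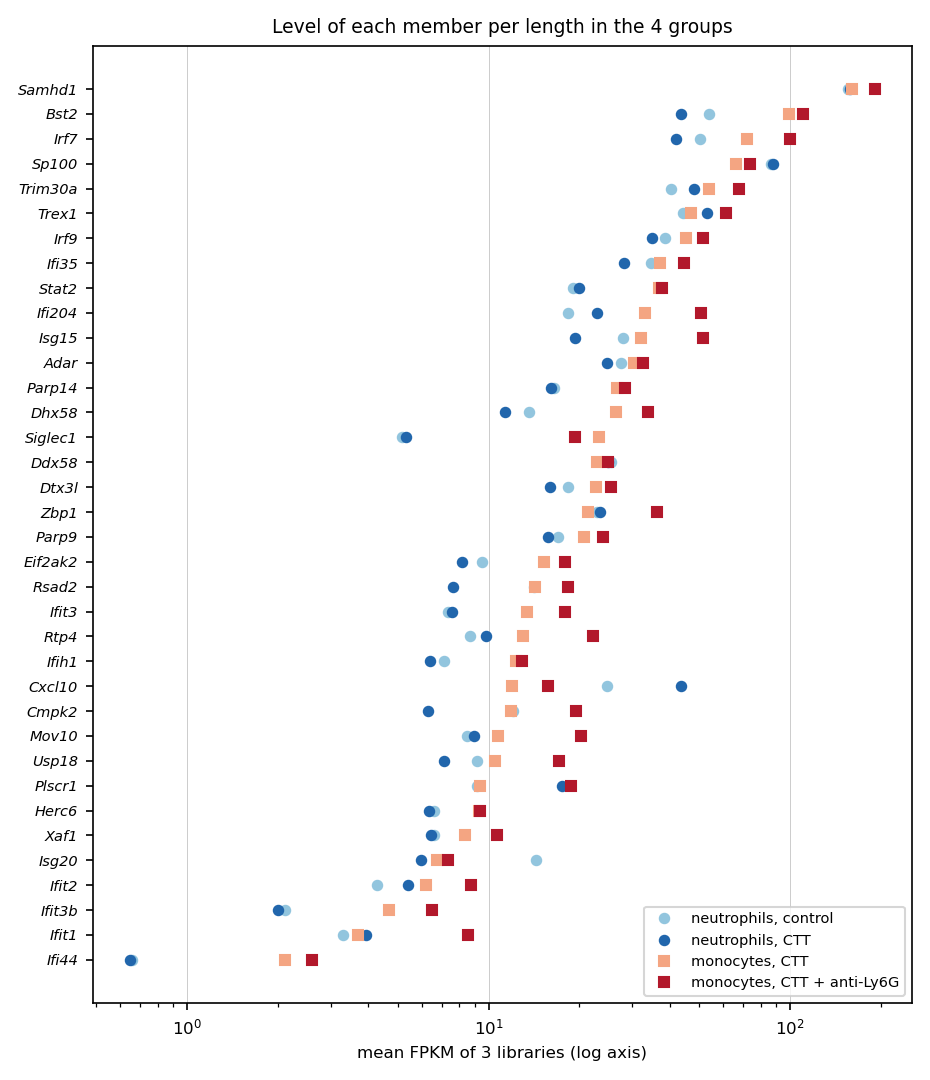
Mean FPKM of 3 libraries on a log axis for each of the 36 genes, in control and CTT neutrophils (circles) and in monocytes after CTT without and with anti-Ly6G (squares), ordered by the level after CTT alone in monocytes. Samhd1 leads at 155 to 191 FPKM and Ifi44 comes last at 0.647 to 2.60 FPKM, and the dark red squares lie right of the light ones for most genes.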

How the data were processed

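What the authors deposited were read counts (whole numbers) for each gene and FPKM values, with 1 table of each for either cell selection. The submitters' processing notes name HISAT2, HTSeq and the build mm10; the sources used here give no versions, annotation or strand setting, so reads of overlapping or near-identical genes may be shared. RNA was extracted with TRIzol, and library preparation used VAHTS Universal V6 reagents, per the labels. All value columns matched a sample by name, and 0 were left out.

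Each table was tested alone in R 4.3.3 with edgeR 4.0.16 on the deposited counts (filterByExpr, TMM, quasi-likelihood F test, two-sided), adjusted after Benjamini and Hochberg over all tested genes. SE is the absolute log2 fold change over the square root of F. The 17 alternatives per comparison used other scalings and filters, DESeq2 1.42.0, limma 3.58.1 (voom, or trend after adding 1 or 0.1 to the FPKM values the authors deposited and taking log2), the replicate number as a block, and each library left out. The calling step was run on simulated counts with the same spread set for all genes, and nothing about the calls given here is read from it. The 2 most similar libraries still differed by a chi-square of 13.1 per degree of freedom over genes.

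The 36 genes found, their role groups and the other lists were chosen with earlier results of these data known. Values per library are given for the 14 genes of smallest p in monocytes and the 6 in neutrophils, for the largest absolute log2 fold change of each role group and for the 3 genes of highest FPKM, and up to 4 genes of smallest p were named for each other list. Genes given beyond this rule (Rsad2, Trim30a and Ifit2 in neutrophils, Rsad2 and Siglec1 in monocytes, Cgas, Aim2, Ifi27 and Tlr3 among the lists) were chosen after their values were seen. Positions and promoters come from RefSeq tables of GRCm38.p6, in which all 36 genes matched by Entrez ID. Shared 50-base stretches were counted in GENCODE transcripts.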

Additional observations from a re-analysis of the deposited data

How the results depend on the processing

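In monocytes 31 of the 36 genes kept the sign of their log2 fold change in all 17 alternatives, and in neutrophils 17 did. The median over the 36 genes ranged from 0.23 to 0.42 in monocytes and from −0.096 to 0.12 in neutrophils. Against 19 genes that rose in monocytes, limma on log2 FPKM plus 1 or plus 0.1 called 9, and leaving out 1 library gave 5 to 23. In neutrophils DESeq2 called 1 gene that rose and 1 that fell, and leaving out 1 library gave 0 to 1 that rose (Plscr1, without control replicate 1). Without that library the neutrophil values of Samhd1 and Sp100 turned to −0.054 and −0.16 (ranges over left-out libraries −0.054 to 0.19 and −0.16 to 0.26), and without CTT replicate 3 that of Cxcl10 to −0.21 (range −0.21 to 1.31).

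Over all tested genes in neutrophils, where 74 rose and 0 fell, DESeq2 gave 456 and 107, FPKM plus 1 gave 8 that rose, FPKM plus 0.1 gave 26 and 1, and FPKM plus 1 with a mean of at least 1 gave 49 and 1. With 1 library left out, 0 to 257 rose (257 without control replicate 1, 0 without any other) and 0 to 31 fell. In monocytes, where 1354 rose and 681 fell, upper-quartile scaling gave 1030 that fell, DESeq2 1204, FPKM plus 1 gave 883 and 322, and FPKM plus 0.1 gave 362 that fell. With 1 library left out, 706 to 1687 rose and 177 to 1168 fell. The causes were not tested.

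Same-numbered libraries did not deviate together throughout (correlations of 0.0055 to 0.199 in neutrophils and −0.027 to 0.087 in monocytes), so the replicate number was not taken as a pairing. With it as a block, 0 of the 36 rose in neutrophils and 20 in monocytes, and over all genes 4 rose and 1 fell in neutrophils and 1551 rose and 1043 fell in monocytes; not every library correlated best with its own number.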
